A study of Arabidopsis thaliana with 4 samples.

Results

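The genes described are 8 genes of auxin synthesis and inactivation in Arabidopsis roots, followed across cell classes in lbd_quad and WT cells. They are TAA1 (AT1G70560) and TAR2 (AT4G24670), the YUCCA genes YUC3 (AT1G04610), YUC5 (AT5G43890), YUC7 (AT2G33230), YUC8 (AT4G28720) and YUC9 (AT1G04180), and IAMT1 (AT5G55250). The 8 were chosen by locus from a list and not by their values, and all 8 were present among the 20511 gene rows of the expression matrix.

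Auxin (indole acetic acid) is made in plants mainly from tryptophan in a pair of steps. TAA1 and its relative TAR2 are aminotransferases that turn tryptophan into indole pyruvic acid, and the YUCCA proteins are flavin monooxygenases that turn this into auxin. IAMT1 methylates the acid group of auxin, which gives an inactive ester. In root tips auxin is known for placing the stem cell niche and for its role when a cut tip is rebuilt.

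The study took root tips of plants aged 7 days, cut off the tip of the root, and collected the tips 16 h later for droplet sequencing of single protoplasts. The lbd_quad plants carry the lbd6 lbd36 lbd12 lbd15 mutations in 4 LBD transcription factor genes, and the WT plants carry none of them. All plants of both genotypes were cut, so no uncut root served as a baseline. Each genotype had 2 libraries, and the labels do not say which plants or which day each came from, so p-values measure only the spread between these libraries, which may be technical.

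The lbd_quad libraries held 846 and 2876 cells with 7073293 and 15379536 unique transcript molecules (UMIs), and the WT libraries held 1746 and 5061 cells with 7930684 and 21280667 UMIs. Median depth per cell was 6364 and 2521.5 UMIs in lbd_quad and 2443.5 and 2090 UMIs in WT, and 9 cell barcodes occurred in more than 1 library. LBD12 was at 0.335 and 0.142 UMIs per 10000 in lbd_quad and at 2.55 and 1.27 in WT, whereas LBD6, LBD36 and LBD15 had between 3 and 187 UMIs in a library and were not below WT in both lbd_quad libraries. The labels do not place the lesions, so 3′ counts of the mutated genes do not test the genotype. Cells were clustered without the 8 genes, and 16 of 34 clusters could be named from markers, which gave 8 classes. The remaining 18 clusters held 55.8% of cells, 62.0% of lbd_quad cells and 52.5% of WT cells. Clusters 5 and 20 were 98.9% and 97.2% lbd_quad cells, and clusters 9 and 21 were 2.30% and 1.44% lbd_quad cells, so the libraries did not hold the same cells. Cluster 21 came mostly from WT replicate 1, with 194 cells against 11 in WT replicate 2.

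Over all cells of a library, 6 of the 8 genes were lower in both lbd_quad libraries than in either WT library, and none was higher in both. Among every gene with a UMI, 15.8% were lower in this way. Of the 8 genes, YUC9 had the largest difference among those tested, and none passed the test across all genes. A mean of 0.1 UMIs per 10000 was needed for the test, and YUC7 and YUC8 did not reach it. The test called 36 of 9509 genes, or 0.379%, and 0 of the other 6, of which 2 had an unadjusted p under 0.05. The tested genes had a median log2 fold change of -0.49, against 0.01 over all genes tested. Of these genes YUC3 and IAMT1 passed the filter through WT and YUC5 through lbd_quad, so the median is a description without a test. In these whole-tip values, fewer cells of a type and less RNA per cell cannot be told apart.

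**Figure D1:**
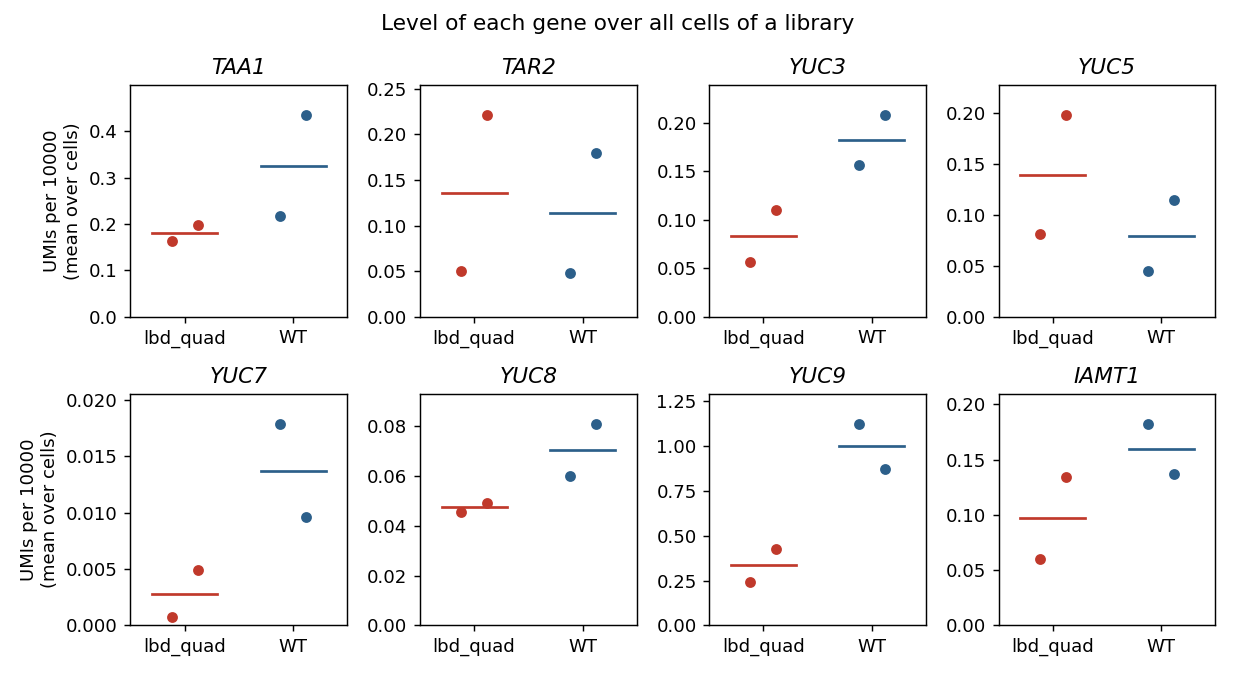
Each point is 1 library and gives the mean over its cells of a gene's UMIs per 10000 UMIs of the cell (linear axis from 0, own scale per gene), with lbd_quad in red left of WT in blue and a line at the mean of the 2 libraries. YUC9 lay at 0.242 and 0.427 in lbd_quad and at 1.12 and 0.873 in WT, and TAR2 and YUC5 were the genes whose genotypes overlapped.

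The aminotransferase genes differed from each other in where they were found. TAA1 was spread over the tip. Its level was 0.163 and 0.198 UMIs per 10000 in the lbd_quad libraries and 0.216 and 0.434 in the WT libraries. The genotypes did not overlap, but WT replicate 1 lay nearer to lbd_quad than to WT replicate 2. Its log2 fold change, here and throughout lbd_quad over WT on log2(level + 0.1), was -0.55 with a standard error of 0.30 (adjusted p = 0.748, limma with Benjamini-Hochberg adjustment), and it was -0.18 without WT replicate 2. By class TAA1 averaged 0.840 ± 0.229 UMIs per 10000 in procambium-like cells (SD, n = 2 libraries), 0.539 ± 0.0990 in root cap-like cells (n = 4) and 0.418 ± 0.404 in xylem-like cells (n = 3). These 3 classes were not separated beyond their spread, and hair epidermis-like, phloem-like, cortex-like, endodermis-like and dividing-like cells followed, down to 0.0870 ± 0.109 (n = 4). Every class held TAA1 UMIs.

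Procambium-like cells are the dividing precursors of the vascular tissue, here a single cluster marked by ATHB8, AGO10, SHR and PHB. TAA1 was at 0.678 UMIs per 10000 in the 67 such cells of lbd_quad replicate 2 and at 1.00 in the 136 of WT replicate 2. The other libraries held 0 and 2 such cells, so the genotypes were compared in 1 library each, with no test. In xylem-like cells TAA1 was at 0.321 in lbd_quad replicate 2 and at 0.0713 and 0.861 in the WT libraries, a range that spans the mutant value.

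In root cap-like cells, the layers that cover and are shed from the tip, TAA1 was at 0.537 and 0.503 in lbd_quad and at 0.442 and 0.675 in WT, and the genotypes overlapped. In phloem-like cells TAA1 was at 0 and 0.119 in lbd_quad and at 0.236 and 0.531 in WT, with 13 UMIs in lbd_quad and 63 in WT, and the 0 of lbd_quad replicate 1 allows up to 0.114. The gene passed the filter there through WT, and the genotypes did not overlap, with a log2 fold change of -1.64 ± 0.56 (SE; adjusted p = 0.472, limma with Benjamini-Hochberg adjustment). Cortex-like cells had TAA1 at 0.131 and 0.104 in lbd_quad and at 0.220 and 0.322 in WT, also without overlap (log2 fold change -0.76 ± 0.35 SE, adjusted p = 0.919, limma with Benjamini-Hochberg adjustment).

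TAR2 was concentrated in the phloem. Phloem-like cells were 4.79% of all cells and held 301 of 588 TAR2 UMIs, or 51.2%, whereas cortex-like, endodermis-like and hair epidermis-like cells together had 5 and dividing-like cells had 0. The level was 1.60 and 1.77 UMIs per 10000 in lbd_quad phloem-like cells and 1.12 and 1.83 in WT ones, so the genotypes overlapped. For TAR2 the log2 fold change was 0.22 ± 0.38 (SE; adjusted p = 0.957, limma with Benjamini-Hochberg adjustment) and turned to -0.11 without WT replicate 1. Phloem-like cells averaged 1.58 ± 0.321 over the 4 libraries, and root cap-like cells, next in order, averaged 0.0779 ± 0.0864, well outside the spread.

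The phloem-like class joined cluster 13, with the companion cell markers SUC2, AHA3 and PP2-A1, and cluster 23, with the sieve element genes SEOR1, NAC45, NAC86 and CALS7. In cluster 13 TAR2 was at 2.02 and 1.86 in lbd_quad and at 1.21 and 2.24 in WT. In cluster 23 it was at 0.713 and 1.49 in lbd_quad and at 0.986 and 0.799 in WT. The rest lay mostly in unnamed clusters 6, in which GATA23 and LBD14 of the pericycle marker list were raised, and 17, led by CLE5 and PDLP7. In cluster 6 TAR2 was at 0.370 and 1.10 in lbd_quad (12 and 136 cells) and at 0.373 and 0.486 in WT. Over all cells TAR2 was at 0.0499 and 0.221 in lbd_quad and at 0.0482 and 0.180 in WT, with replicate 2 high in both genotypes (log2 fold change 0.11 ± 0.42 SE, adjusted p = 0.976, limma with Benjamini-Hochberg adjustment). That sign turned to -0.55 with limma voom on library sums.

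**Figure D2:**
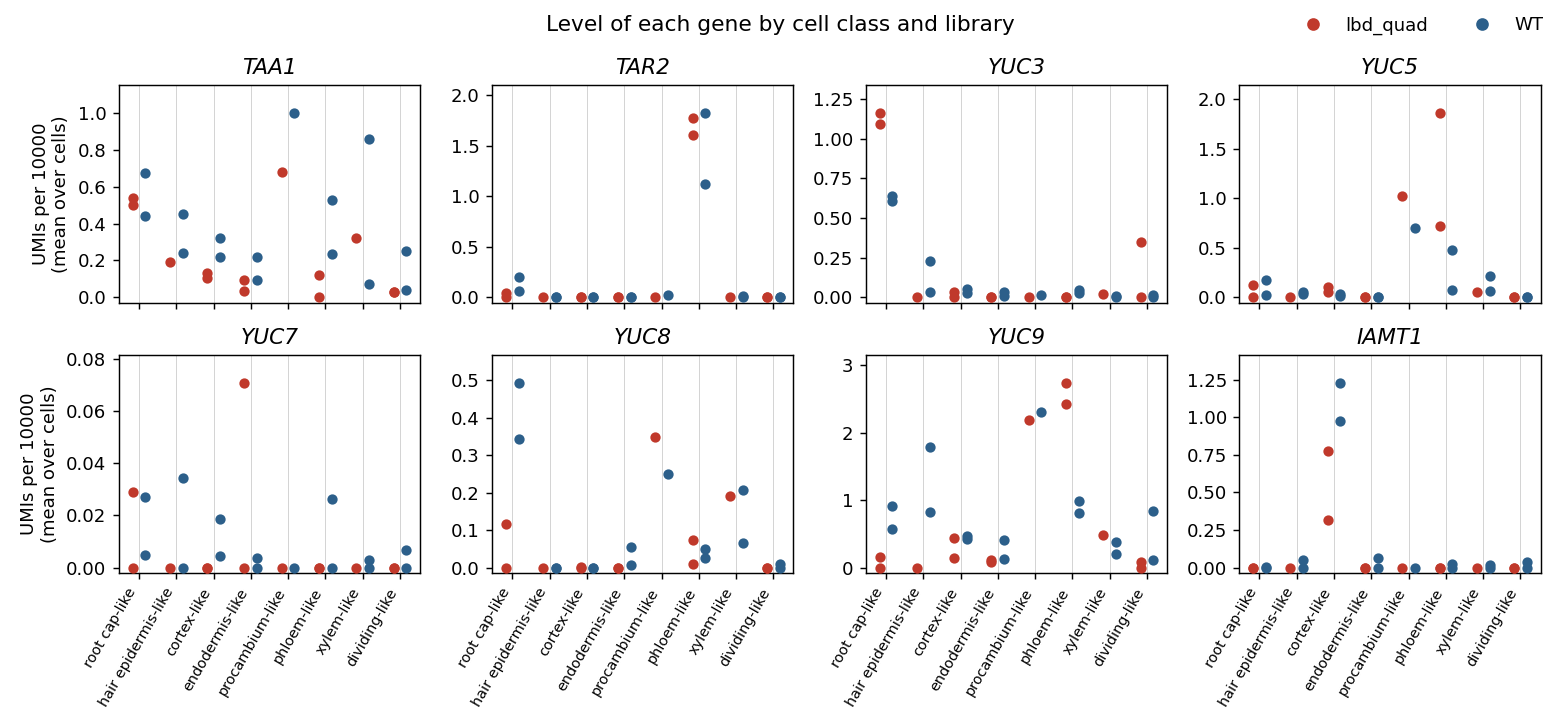
Each panel is 1 gene and each point 1 library with at least 20 cells of the class, as mean UMIs per 10000 (linear axis, own scale per gene), with lbd_quad in red left of WT in blue. IAMT1 was nearly limited to cortex-like cells and TAR2 to phloem-like cells among the named classes, and YUC9 in phloem-like cells lay at 2.42 and 2.74 in lbd_quad against 0.989 and 0.805 in WT.

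Among the YUCCA genes YUC9 had the most UMIs, 906 in lbd_quad and 2377 in WT. Its level over all cells was 0.242 and 0.427 UMIs per 10000 in lbd_quad and 1.12 and 0.873 in WT. Both lbd_quad libraries lay below both WT libraries, by more than the spread within either genotype. This gave a log2 fold change of -1.36 ± 0.31 (SE; unadjusted p = 0.00242, adjusted p = 0.141, limma with Benjamini-Hochberg adjustment), so YUC9 did not pass the threshold of 0.05 over 9509 genes. With 1 library left out, its log2 fold change ranged from -1.67 to -1.05.

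Which cells held YUC9 differed between the libraries. In WT the richest cells were those of cluster 9, an unnamed cluster led by AT2G43890, the cytokinin response regulator RR5, the expansin EXPA17 and the sulfate transporter SULTR1;2. YUC9 was at 5.83 and 4.12 UMIs per 10000 in the 152 and 273 cells of this cluster in WT, and these cells carried 45.2% and 25.5% of the summed YUC9 level of their libraries. In lbd_quad the cluster had 0 of 846 cells, which allows a share of up to 0.355%, and 10 of 2876 cells, in which no YUC9 UMI was found. Cluster 9 was 8.71% and 5.39% of the WT cells. With its cells left out, YUC9 was at 0.242 and 0.429 in lbd_quad and at 0.673 and 0.687 in WT, still without overlap.

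Hair epidermis-like cells were marked by COBL9, EXPA7, PRP3 and LRX1. They carried 3.00% and 22.3% of the summed YUC9 level of the WT libraries, in 4.07% and 10.9% of the cells. YUC9 was at 0.827 and 1.79 UMIs per 10000 in the 71 and 552 such cells of the WT libraries, with 329 UMIs. The 3 and 51 such cells of the lbd_quad libraries held 0 UMIs. Against a floor of 3 UMIs over the mutant cells, YUC9 pooled by genotype was at least 10.5-fold lower in lbd_quad. Against WT replicate 1 alone, with 26 of the 329 UMIs, it was at least 6.48-fold lower. Both bounds pool mutant cells across libraries and cover counting error only, not the spread between libraries. The class had too few mutant cells for a test. In unnamed cluster 7, led by sks15 and AGP31, YUC9 was at 0.191 and 1.18 in lbd_quad (14 and 22 cells) and at 0.679 and 1.98 in WT (127 and 329 cells), with overlap.

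The whole-tip difference of YUC9 was also computed in fewer clusters. Over the 17 clusters with at least 5 cells in every library, which held 59.6% to 70.0% of cells, the log2 fold change was -0.31 ± 0.30 with cells as captured and -0.26 ± 0.25 when every library was given the same cluster makeup (SE; adjusted p = 0.999 and adjusted p = 0.952, limma with Benjamini-Hochberg adjustment). Cluster 9 and the hair epidermis-like cells were not among them. For YUC3 these values were -0.60 and -0.30, for TAA1 they were -0.59 and -0.70, and for YUC5 they were 0.52 and 0.56.

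**Figure D3:**
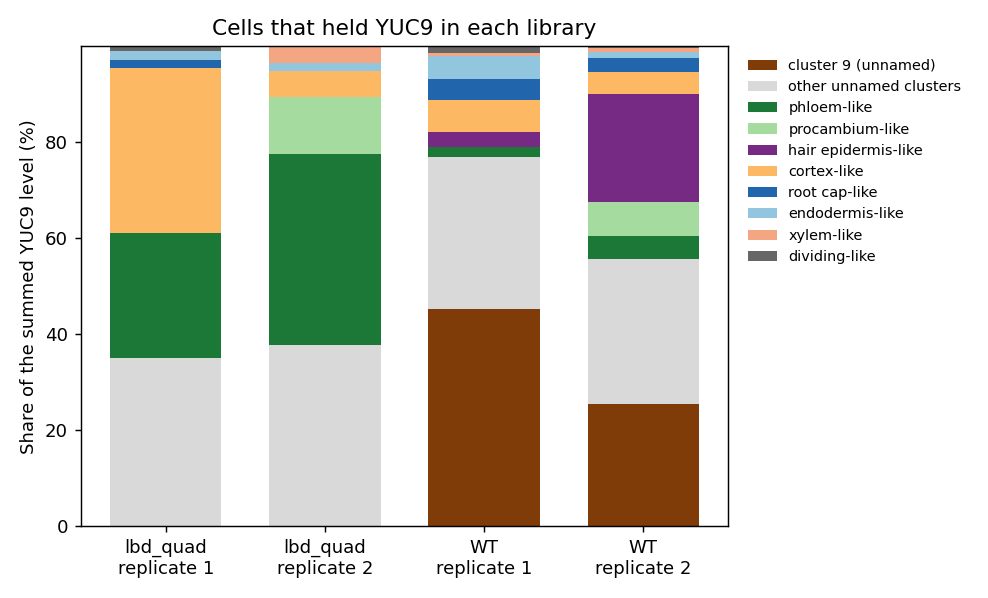
Each bar is 1 library (lbd_quad left of WT) and is divided by the share, in percent, of its summed YUC9 level found in each named class, in cluster 9 and in the other unnamed clusters. Phloem-like cells carried 26.0% and 39.7% in lbd_quad and 2.07% and 4.79% in WT, and cluster 9 carried 45.2% and 25.5% in WT.

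In phloem-like cells the order of the genotypes was the other way round. YUC9 was at 2.42 and 2.74 UMIs per 10000 in lbd_quad (22 and 178 cells) and at 0.989 and 0.805 in WT (41 and 263 cells). Both mutant libraries lay above both WT libraries, and the means were 2.58 ± 0.223 in lbd_quad and 0.897 ± 0.130 in WT (SD, n = 2). With a log2 fold change of 1.43 ± 0.36 (SE; unadjusted p = 0.00270, adjusted p = 0.267, limma with Benjamini-Hochberg adjustment) YUC9 did not pass, in a class in which 3 of 8849 genes, or 0.0339%, were called. In WT replicate 1 all 87 UMIs came from 4 cells. The order was the same in both phloem clusters. YUC9 was at 2.65 and 3.23 in lbd_quad and at 1.28 and 1.02 in WT in cluster 13, and at 1.93 and 1.30 in lbd_quad and 0.529 and 0.265 in WT in cluster 23. Between 7 and 187 cells stood behind each of these cluster values.

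In root cap-like cells YUC9 was lower in the mutant. It was at 0.154 and 0 UMIs per 10000 in lbd_quad (21 and 26 cells, 6 UMIs in all) and at 0.920 and 0.575 in WT (93 and 222 cells, 148 UMIs). The 0 of lbd_quad replicate 2 allows up to 0.360, which is below both WT values. A log2 fold change of -2.38 ± 0.68 (SE; unadjusted p = 0.00163, adjusted p = 0.131, limma with Benjamini-Hochberg adjustment) did not pass where 39 of 6257 genes, or 0.623%, were called. YUC9 passed the filter in this class through WT, and its value ranged from -3.05 to -1.71 with 1 library left out. The median of all genes tested in this class was -0.38.

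Which clusters the root cap-like cells fell in differed between libraries, most of all in lbd_quad replicate 2. Cluster 24, with the root cap regulators SMB, BRN1 and BRN2 and the cellulase gene CEL5 raised, made up 23.8% and 3.85% of them in lbd_quad and 28.0% and 38.7% in WT. YUC9 was at 2.25 and 1.26 in this cluster in WT, and lbd_quad had 5 cells and 1 cell of it. In cluster 19, in which the cell death genes BFN1, RNS3, PASPA3 and CEP1 were raised, YUC9 was at 0.0323 and 0 in lbd_quad (1 UMI) and at 0.405 and 0.145 in WT (24 UMIs). The part of this makeup in the root cap-like difference was not tested.

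The genotype effect on YUC9 differed between phloem-like and root cap-like cells by 3.81 ± 0.79 on the log2 scale (SE; adjusted p = 0.0470 over all genes and 10 pairs of classes, limma with Benjamini-Hochberg adjustment). It was the only one of the members' class differences past the threshold, and 249 of 94610 gene and pair tests, or 0.263%, were called. The call rested on every library. Leaving out 1 library at a time gave differences of 3.05 to 4.57 with adjusted p = 0.0701 to adjusted p = 1.0 (limma). It was also lost at clustering resolution 2 (adjusted p = 0.312), on cells of at least 2000 UMIs (0.0687), with size factors (0.0804), with no filter (0.108) and with pseudocount 0.01 (0.194), all by limma. On the root cap-like side it rests on 6 UMIs in lbd_quad. Phloem-like against dividing-like cells, next for YUC9, had adjusted p = 0.139 (limma).

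In the other classes tested YUC9 did not pass either. The cortex-like class had YUC9 at 0.439 and 0.135 in lbd_quad and at 0.466 and 0.426 in WT (log2 fold change -0.62, -1.67 at resolution 0.5, -1.33 at resolution 2 and 0.24 on cells of at least 2000 UMIs), where 0% of 8845 genes were called and 493 had an unadjusted p under 0.05. Endodermis-like cells, where 1.08% of genes were called, had 0.0864 and 0.119 in lbd_quad and 0.402 and 0.131 in WT, without overlap. Dividing-like cells, where 0.124% were called, had 1 UMI in lbd_quad and 14 in WT, with 0.0851 and 0 in lbd_quad and 0.840 and 0.114 in WT. YUC9 passed the filter there through WT. None of the 8 genes passed in any of the 5 classes tested. Procambium-like cells held 2.19 UMIs per 10000 in lbd_quad replicate 2 and 2.31 in WT replicate 2, close to each other without a test. Xylem-like cells held 0.484 in lbd_quad replicate 2 and 0.385 and 0.203 in the WT libraries. By class mean YUC9 was ordered procambium-like (2.25 ± 0.0857, n = 2), phloem-like (1.74 ± 0.984, n = 4), hair epidermis-like (0.871 ± 0.894, n = 3) and root cap-like (0.412 ± 0.417, n = 4), and no neighbours in this order were further apart than their spread (SD).

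Unnamed clusters held 78.6% of the 901 YUC3 UMIs. Among the named classes root cap-like cells held the most, 13.8% in 3.44% of cells. In the whole tip YUC3 was at 0.0567 and 0.110 UMIs per 10000 in lbd_quad and at 0.156 and 0.208 in WT, without overlap. Its log2 fold change was -0.63 ± 0.25 (SE; unadjusted p = 0.0364, adjusted p = 0.548, limma with Benjamini-Hochberg adjustment). YUC3 passed the filter over all cells through WT, since its lbd_quad mean was 0.0833. In root cap-like cells the mutant values were the higher ones. There YUC3 was at 1.09 and 1.16 in lbd_quad and at 0.638 and 0.610 in WT, with 33 and 91 UMIs in the genotypes. A log2 fold change of 0.76 ± 0.62 did not pass (SE; adjusted p = 0.632, limma with Benjamini-Hochberg adjustment). In root cap-like cluster 19 YUC3 was at 1.38 and 1.21 in lbd_quad and at 0.822 and 0.771 in WT. In cluster 24 it was at 0.162 and 0 in lbd_quad (5 cells and 1 cell) and at 0.164 and 0.354 in WT. The part of this makeup in the class difference was not tested. The root cap-like class mean was 0.876 ± 0.293 (SD, n = 4), and dividing-like cells, next in order, averaged 0.0907 ± 0.174, outside its spread.

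Cluster 8 held 488 of 901 YUC3 UMIs, of which 378 were from WT replicate 2. It carried 9.04% and 28.7% of the summed YUC3 level in lbd_quad and 0% and 36.4% in WT, and root cap-like cells carried 47.9% and 9.58% in lbd_quad and 21.8% and 12.9% in WT. This unnamed cluster, led by AT1G15085 with LAX2 and BBM among its leading genes, had 1 cell in WT replicate 1. AGO10, PHB and LHW of the procambium list were raised in it, but BBM is of the stem cell niche list, so it stayed unnamed. YUC3 was at 0.0789 and 0.475 in lbd_quad (55 and 191 cells) and at 1.88 in WT replicate 2 (204 cells). In cluster 12, in which GL2 and MYB23 of the non-hair epidermis list were raised, it was at 1.17 and 0.731 in lbd_quad and at 3.18 and 1.28 in WT. In both clusters every lbd_quad value lay below the WT values shown.

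For YUC5 the classes with the highest mean levels were procambium-like and phloem-like. Phloem-like and procambium-like cells held 32.7% and 16.9% of its 645 UMIs, in 4.79% and 1.95% of cells, and unnamed clusters held 36.6%. The libraries differed in this, since phloem-like cells carried 60.0% and 22.4% of the summed YUC5 level in lbd_quad and 3.80% and 21.9% in WT, and root cap-like cells carried 20.5% in WT replicate 1. Averaged over all cells YUC5 was at 0.0808 and 0.198 UMIs per 10000 in lbd_quad and at 0.0446 and 0.114 in WT, and the genotypes overlapped (log2 fold change 0.40 ± 0.31 SE, adjusted p = 0.862, limma with Benjamini-Hochberg adjustment). YUC5 passed the filter over all cells through lbd_quad, since its WT mean was 0.0793.

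In phloem-like cells YUC5 was at 1.86 and 0.716 in lbd_quad and at 0.0722 and 0.480 in WT. Both mutant libraries lay above both WT libraries, with a wide spread inside each genotype. Its log2 fold change was 2.00 ± 0.62 (SE; unadjusted p = 0.00968, adjusted p = 0.408, limma with Benjamini-Hochberg adjustment). It ranged from 1.13 to 2.88 with 1 library left out. In phloem cluster 13 YUC5 was at 1.57 and 0.928 in lbd_quad and at 0.0168 and 0.592 in WT. In phloem cluster 23 it was at 2.48 and 0.0919 in lbd_quad (7 and 45 cells) and at 0.159 and 0.205 in WT, so lbd_quad replicate 2 was there below both WT libraries. In cluster 17 YUC5 was at 1.20 in lbd_quad replicate 2 (96 cells) and at 0.363 and 0.0915 in WT (24 and 178 cells). Procambium-like cells held 1.02 in lbd_quad replicate 2 and 0.700 in WT replicate 2. The class means of procambium-like and phloem-like cells, 0.861 ± 0.227 (SD, n = 2) and 0.783 ± 0.768 (n = 4), did not differ beyond their spread.

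YUC8 was too low over all cells for the test. The level was 0.0457 and 0.0492 UMIs per 10000 in lbd_quad and 0.0599 and 0.0810 in WT, from 114 and 231 UMIs. By class mean it was ordered procambium-like (0.299 ± 0.0700, n = 2), root cap-like (0.238 ± 0.222, n = 4) and xylem-like (0.154 ± 0.0777, n = 3), which the spread did not separate (SD). Root cap-like cells had 0.116 and 0 in lbd_quad (3 UMIs) and 0.493 and 0.342 in WT (51 UMIs). It passed the filter there through WT, and its log2 fold change was -1.80 ± 0.69 (SE; adjusted p = 0.318, limma with Benjamini-Hochberg adjustment). In cluster 24, of which lbd_quad had 5 cells and 1 cell, the WT values were 1.57 and 0.788. In root cap-like cluster 19 YUC8 was at 0.0900 and 0 in lbd_quad (2 and 0 UMIs). It was at 0.0753 and 0.0602 there in WT (4 and 2 UMIs), so the genotypes overlapped, with few molecules. The part of cluster makeup in the root cap-like difference of YUC8 was not tested. In cluster 0, which held 81 of 345 YUC8 UMIs and was led by genes that included LAX3, YUC8 was at 0.364 and 0.216 in lbd_quad and at 0.255 and 0.283 in WT, and the genotypes overlapped.

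YUC7 was close to the limit of detection. It had 1 and 3 UMIs in the lbd_quad libraries and 11 and 14 in the WT libraries, and levels of 0.000718 and 0.00488 in lbd_quad and of 0.0179 and 0.00960 in WT. A gene on the opposite strand overlaps it in the RefSeq annotation, and 9 of its UMIs lay in cluster 9. No class difference could be read from so few molecules.

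The summed level of the 5 YUCCA genes over all cells was 0.426 and 0.789 UMIs per 10000 in lbd_quad and 1.40 and 1.29 in WT. Without YUC9 the sum was 0.184 and 0.362 in lbd_quad and 0.278 and 0.412 in WT, and the genotypes overlapped. In phloem-like cells the sum of the 5 was 4.36 and 3.47 in lbd_quad and 1.16 and 1.35 in WT. The sums are descriptions without a test.

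**Figure D4:**
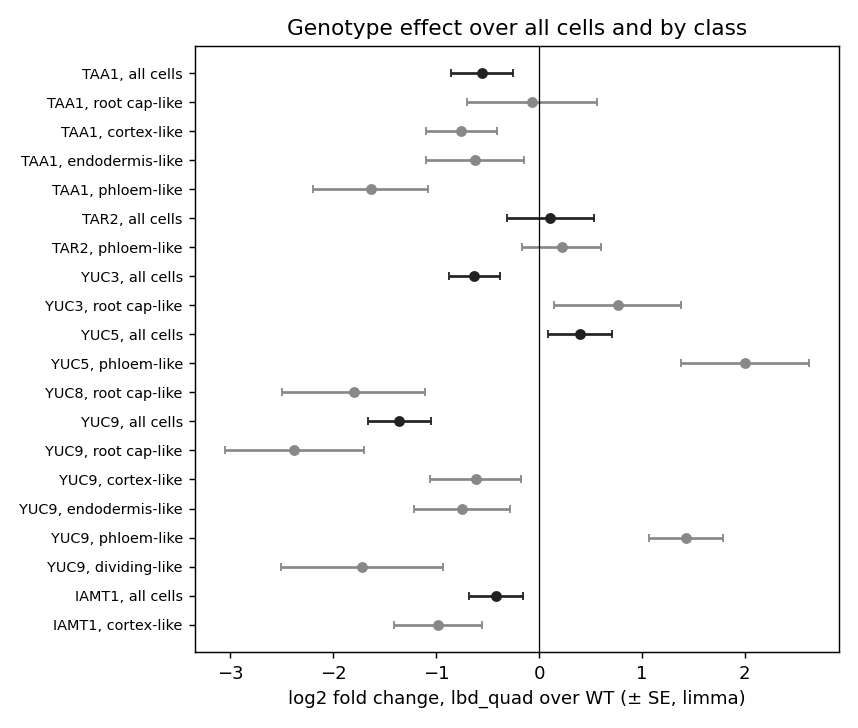
Points give the log2 fold change of lbd_quad over WT with its standard error (limma) for each gene and each comparison in which the gene was tested, over all cells in black and by class in grey. YUC9 lay at 1.43 in phloem-like cells and at -2.38 in root cap-like cells, and none of the points passed the threshold across all genes.

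IAMT1, the gene of auxin methylation, was found in the cortex. Cortex-like cells, the ground tissue outside the endodermis, held 445 of its 489 UMIs, or 91.0%, in 13.4% of cells. They averaged 0.823 ± 0.386 UMIs per 10000 over the libraries (SD, n = 4), and hair epidermis-like cells, next in order, averaged 0.0169 ± 0.0292 (n = 3). The other named classes had 0 to 3 UMIs each. IAMT1 was also the leading gene of cluster 10 by fold, although it was not used in the clustering, and AT1G62510, a marker of cortex, was the next.

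Within the cortex IAMT1 marked 1 of 4 clusters. Cluster 10 held 409 of its UMIs. IAMT1 was there at 2.42 and 2.60 in lbd_quad (21 and 136 cells) and at 2.02 and 4.36 in WT (105 and 130 cells), an overlapping range. In cluster 11, led by AT5G39670, CYP94B3 and GA2OX6, it was at 0 and 0.160 in lbd_quad (124 and 89 cells) and at 0.534 and 0.480 in WT (101 and 63 cells), with 5 and 28 UMIs.

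Over the cortex-like class IAMT1 was at 0.316 and 0.776 in lbd_quad and at 0.973 and 1.23 in WT, without overlap. The difference was -0.98 ± 0.43 on the log2 scale (SE; unadjusted p = 0.0490, adjusted p = 0.891, limma with Benjamini-Hochberg adjustment). Without lbd_quad replicate 2 it was -1.52, and without lbd_quad replicate 1 it was -0.45. It was -0.34 and -0.39 at clustering resolutions 0.5 and 2 (adjusted p = 0.911 and adjusted p = 0.986, limma). In lbd_quad replicate 1 cluster 10 was 13.0% of the cortex-like cells and cluster 11 was 77.0%, and in the other 3 libraries cluster 10 was 26.5% to 37.6%. The part of this makeup in the difference was not tested. Over all cells IAMT1 was at 0.0601 and 0.134 in lbd_quad and at 0.182 and 0.137 in WT (log2 fold change -0.42 ± 0.26 SE, adjusted p = 0.809, limma with Benjamini-Hochberg adjustment). IAMT1 passed the filter over all cells through WT, since its lbd_quad mean was 0.0970.

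Genes with the most similar patterns were sought over 85 values of 33 clusters by library, as Pearson correlations that are descriptions across cells sharing library and depth. TAR2 was most like AT1G10380 (0.82), UMAMIT22 (0.81) and AT1G78520 (0.80). YUC5 was most like AT5G44350 (0.78), AT5G66815 (0.75) and AT4G31110 (0.73), and IAMT1 like AT1G62510 (0.78), CYP71B34 (0.75) and FUT5 (0.73). The closest genes were less alike for YUC3, with MAP18 (0.64), AT1G19900 (0.61) and AT2G39040 (0.60), and for YUC9, with AT5G65660 (0.62), LEA14 (0.60) and EXPA14 (0.60). For TAA1 they were NSP4 (0.56), AT4G35380 (0.55) and AT5G60700 (0.55). Between the members the highest value was 0.50, for TAR2 and YUC5.

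Other genes of the auxin pathway were read from 5 lists with 109 genes, of which 92 were in the matrix and 54 were tested over all cells. None passed the test, against 0.379% of all genes, and 4 had an unadjusted p under 0.05. Of the other synthesis genes 10 were tested, with a median log2 fold change of 0.18. ASB1, a subunit of anthranilate synthase in tryptophan synthesis, was at 0.972 and 0.866 UMIs per 10000 in lbd_quad and at 0.860 and 0.685 in WT. NIT3, a nitrilase, was at 0.454 and 0.230 in lbd_quad and at 0.786 and 0.497 in WT.

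Of the genes of auxin inactivation and release 10 were tested, with a median of -0.14. UGT74E2, which glucosylates the auxin precursor indole butyric acid, was at 2.11 and 2.10 in lbd_quad and at 4.02 and 2.46 in WT. Of the transport genes 13 were tested, with a median of -0.37. ABCB1, an auxin exporter of the plasma membrane, was at 0.453 and 0.620 in lbd_quad and at 1.52 and 1.79 in WT. The genotypes stood well apart, with a log2 fold change of -1.47 ± 0.28 (SE; adjusted p = 0.0937, limma with Benjamini-Hochberg adjustment). Whether it passed depended on which library was left out. PILS6, a member of the carrier family of the endoplasmic reticulum, was at 0.131 and 0.112 in lbd_quad and at 0.0949 and 0.103 in WT.

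Of the receptors and response factors 7 were tested, with a median of -0.17, and of the response genes 14, with a median of -0.21. ARF19, an auxin response factor, was at 0.0535 and 0.0786 in lbd_quad and at 0.113 and 0.206 in WT, and passed the filter through WT. IAA28, an auxin response repressor, was at 1.34 and 1.45 in lbd_quad and at 2.48 and 1.87 in WT. These named genes were picked for not overlapping between genotypes, and they did not pass the test. Of all genes tested, 17.8% were lower and 19.1% were higher in lbd_quad without overlap. Within classes 1 list gene passed, PILS5, a relative of PILS6 named after its values were seen. Of the 44 list genes tested in endodermis-like cells it alone passed, against 1.08% of all genes, with 0 and 0.0196 in lbd_quad and 0.658 and 0.404 in WT (log2 fold change -2.50, adjusted p = 0.0138, limma with Benjamini-Hochberg adjustment). PILS5 passed the filter through WT, with 0 and 1 UMIs in lbd_quad and 47 and 32 in WT, and the 0 allows up to 0.0806 UMIs per 10000. The call was lost with no filter (adjusted p = 0.355, limma), with pseudocount 0.01 (0.0607), on cells of at least 2000 UMIs (0.262), without WT replicate 1 (0.279) and without WT replicate 2 (0.152).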

How the data were processed

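Single protoplasts were sequenced with the 10x Genomics 3′ chemistry, per the labels' protocols. Cell Ranger 7.0.1 and Seurat are named in the submitters' processing notes, and the genome build and annotation are not given in the sources used here. The deposited matrix of 20578 rows and 13844 cells holds the natural log of 1 + UMIs per 10000, as its values show. Whole UMIs were recovered from it, and 100% of values came out whole within 0.01. Of the cell columns, 3315 match no sample and were not used, which left 10529 cells, and 67 rows that are not annotated genes (upstream reading frames and GFP) stayed out of the tests.

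All cells had at least 562 UMIs. Scrublet marked 2 cells, too few for the caller to have worked, and no cell was removed. Cells were clustered on 2000 variable genes, without 121 genes described here, with 40 components, 15 neighbours and Leiden resolution 1 (scanpy 1.11.5, leidenalg 0.10.2). A cluster was named from 96 markers of 11 classes where at least 3 markers were raised at least 2-fold and seen in 10% of its cells, if no other class had as many. The names are rebuilt and may differ from the study's.

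The level is the mean over cells of UMIs per 10000. Genotypes were compared with limma 3.58.1 (R 4.3.3) on log2(level + 0.1) of the libraries, for genes with a mean of at least 0.1, with Benjamini-Hochberg adjustment and a threshold of 0.05. A class was tested where each library held 20 or more of its cells, and differences between classes came from 1 fit with the library as a random block (correlation 0.131). The method was run on simulated data whose libraries varied independently. That setting held no shared deviation of same-numbered libraries and no difference in cell makeup, so it does not cover them. Where a level is 0, the limit is 3 UMIs, and such limits cover counting error only. The members, lists, markers and alternatives were chosen with earlier results of these data known. Named genes are the members, the mutated genes, the list genes past the threshold or, in each list, with the largest difference each way among genes whose genotypes do not overlap, and the 3 genes most like each member. No stretch of 50 bases in the last 500 bases of a member's transcript was shared with another gene in the RefSeq TAIR10.1 transcripts. Alternatives were library sums, limma voom, size factors, other pseudocounts and filters, deeper cells, other clustering resolutions, equal cluster makeup, a replicate block and leaving out each library. The 17 clusters with cells as captured were added after seeing the data.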

Additional observations from a re-analysis of the deposited data

Results flagged for a closer look

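The genotype effect on YUC9 differed between phloem-like and root cap-like cells by 3.81 on the log2 scale, past the threshold of the test of the difference (adjusted p = 0.0470, limma). This was lost with each library left out (adjusted p = 0.0701 to adjusted p = 1.0), at clustering resolution 2 (0.312), on cells of at least 2000 UMIs (0.0687), with size factors (0.0804), with no filter (0.108) and with pseudocount 0.01 (0.194). YUC9 passed the filter in root cap-like cells through WT, with 6 UMIs in lbd_quad. YUC9 was at 2.42 and 2.74 UMIs per 10000 in lbd_quad phloem-like cells and at 0.989 and 0.805 in WT ones, and at 0.154 and 0 in lbd_quad root cap-like cells and at 0.920 and 0.575 in WT ones. Of the lbd_quad root cap-like cells 6 were in cluster 24, which held 124 of the 148 WT YUC9 UMIs of that class.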

How the results depend on the processing

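Over all cells 0 members passed, and YUC9 passed with the replicate block (1 member, adjusted p = 0.0172, limma). Same-numbered libraries deviated together (correlation 0.514 over 9509 genes), but with 2 pairs and no label on what a number marks they share only a number, and the block gave 473 genes called, against 36 without it. The block also took list genes to 3 (PILS5, ABCB1 and ABCB4) and root cap-like members to 1 (YUC9, adjusted p = 0.0154, limma). With 1 library left out, 0 to 1 members and 0 to 1 list genes (ABCB1 or PILS5) passed over all cells, 0 to 1 members in cortex-like cells, and 0 members for the class difference, where the lone sample is assumed to vary like the others. The class difference had 0 members past the threshold at resolution 2, on cells of at least 2000 UMIs, with size factors, with no filter and with pseudocount 0.01, with differences of 3.63 to 5.71. The class with the highest level stayed the same for 4 of 8 members at resolution 2 and for 5 with class sums. All genes called over all cells were 36 as reported, 0 with no filter, 0 with voom (749 at an unadjusted p under 0.05), 1 with library sums, 8 with equal makeup, 18 with pseudocount 1, 19 with size factors and 164 to 255 with 1 library left out. Within classes the alternatives gave 0 to 363 genes (cortex-like), 0 to 90 (dividing-like), 0 to 623 (endodermis-like), 1 to 51 (phloem-like) and 0 to 163 (root cap-like). Some signs reversed. TAR2 over all cells was -0.35 to 0.66 with 1 library left out, -0.29 on deeper cells, -0.55 with voom and -0.36 with library sums, and in phloem-like cells it was -0.11 to 0.55 with 1 left out and -0.15 on deeper cells. YUC9 in cortex-like cells was 0.24 on deeper cells and -1.67 and -1.33 at resolutions 0.5 and 2, against -0.62 as reported, and TAA1 in root cap-like cells was 0.18 with size factors and -0.32 to 0.19 with 1 left out. Size factors moved the median of all genes in root cap-like cells to -0.17, against -0.38 as reported. Causes were not tested. Depth limits YUC7, with 29 UMIs, and every class of fewer than 20 cells.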
